A study of Homo sapiens with 4 samples.

Results

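The CEACAM adhesion molecules analysed here are 5 genes of the carcinoembryonic antigen family, CEACAM1, CEACAM5, CEACAM6, CEACAM7 and CEACAM19, taken by name from the 58735 genes of the count table. They were compared between HCC1954 cells carrying a control hairpin (shCON) and HCC1954 cells carrying a hairpin against ZDHHC15 (shZDHHC15), with 2 samples per group. HCC1954 is an established human breast cancer line with amplified HER2, and ZDHHC15 is a palmitoyltransferase, an enzyme that attaches palmitate to cysteines of other proteins. Both hairpins came as GIPZ lentiviral vectors, the control one with a scrambled sequence, and no other treatment was given. One field of the labels calls the knockdown stable, while the treatment field says that the plasmids were introduced transiently with a lipid reagent. They do not say whether samples 1 and 2 of a group are separate cultures, hairpins or clones. The paper reports a western blot screen of several monoclonal cultures for the hairpins, without saying which were sequenced. Whether the groups also differ by clone is therefore not known. The p-values measure only the spread between these samples, which may be technical.

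CEACAM proteins are cell surface glycoproteins built from immunoglobulin-like domains, which bind to each other between neighbouring cells. CEACAM5, CEACAM6 and CEACAM7 are held in the membrane by a GPI (glycosylphosphatidylinositol) anchor, whereas CEACAM1 and CEACAM19 span it. CEACAM5 is the carcinoembryonic antigen measured as a tumour marker in blood, and CEACAM6 is often abundant in carcinomas. CEACAM1 exists in forms with a long or a short cytoplasmic tail, and the long tail carries inhibitory motifs that recruit the phosphatases SHP-1 and SHP-2. Counts per gene cannot separate these forms.

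The libraries held between 17560982 and 19118704 counts. ZDHHC15 itself received 17617 and 15716 counts in shCON and 0 in both shZDHHC15 samples, so the labels and the targeted gene go together. Allowing for counting error in the counts of 0, its shCON level was at least 6040-fold higher. The loss of ZDHHC15 counts was therefore complete at this depth and not partial. Whether the hairpin alone accounts for a complete loss was not tested. Of 15817 genes tested in edgeR, 42.0% passed an adjusted p under 0.05, 21.7% higher and 20.3% lower in shZDHHC15. Calls with a log2 fold change above 1 made up 7.51% of the tested genes, and those below -1 made up 3.79%. The median log2 fold change over all tested genes was 0.0154. Since bulk RNA was measured, fewer expressing cells and less RNA per cell cannot be told apart. The epithelial and HER2 markers were present in every sample, with 8 of 10 lower and 1 higher in shZDHHC15 and a median log2 fold change of -0.515. Among them KRT8, a keratin of simple epithelia, fell by 1.62 on the log2 scale, its partner KRT18 fell by 1.58, and the 2 genes overlap on opposite strands. KRT19 was higher by 0.44, a call lost without shZDHHC15 replicate 1 (log2 fold change 0.41, adjusted p = 0.0806), whereas the HER2 gene ERBB2 was lower by 0.24 (adjusted p = 0.0332).

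Of the CEACAM genes, 4 rose in ZDHHC15-depleted cells and the fifth, CEACAM7, was near the detection limit. CEACAM1 rose most, followed by CEACAM5, CEACAM6 and CEACAM19, with fitted changes of 7.79-fold, 4.80-fold, 3.49-fold and 1.54-fold. All 4 tested genes had an adjusted p under 0.05, where 21.7% of all tested genes were higher by the same rule, and 3 of them exceeded a log2 fold change of 1, where the share over all genes was 7.51%. The 4 genes had at least 25 counts in every sample, so none entered the test through its shZDHHC15 samples alone.

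CEACAM1 (ENSG00000079385, chromosome 19, 42507304 to 42561234, minus strand, GRCh38) had 121 and 101 counts in the controls, against 1030 and 850 counts after depletion. Both depleted samples were far above both controls, with a wider spread between them. Its level rose from 6.31 ± 0.459 to 49.3 ± 8.50 CPM (counts relative to the TMM-scaled library size, SD, n = 2). The log2 fold change was 2.96 (standard error 0.162, 95% interval 2.62 to 3.31), with a Benjamini-Hochberg adjusted p = 2.77e-09 by the quasi-likelihood test of edgeR. Of all tested genes, 0.948% had a larger log2 fold change than CEACAM1, against 1.86% for CEACAM5, 2.98% for CEACAM6 and 16.6% for CEACAM19. GENCODE release 29 gives CEACAM1 14 transcripts, 8 of them protein-coding, and its exons overlap the antisense gene LIPE-AS1. LIPE-AS1 held between 9 and 16 counts in each sample, fewer than CEACAM1 in all 4.

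CEACAM5 (ENSG00000105388, chromosome 19, 41708585 to 41729798, plus strand) was the weakest of the tested members. It received 28 and 25 counts in shCON and 148 and 130 counts in shZDHHC15. The values of the groups did not overlap, and samples within a group lay close together. The level went from 1.51 ± 0.0380 to 7.29 ± 0.938 CPM (SD, n = 2). In log2 terms the difference was 2.26 (standard error 0.260, 95% interval 1.71 to 2.82, adjusted p = 8.12e-06 from edgeR). The low control counts leave the widest interval of the 4 tested genes.

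CEACAM6 (ENSG00000086548, chromosome 19, 41750977 to 41772208, plus strand) was the most abundant member in all 4 samples. Its counts were 435 and 396 in shCON and 1603 and 1553 in shZDHHC15, again without overlap between groups. The level rose from 23.7 ± 0.272 to 82.6 ± 4.93 CPM (SD, n = 2). In log2 terms the difference was 1.80 (standard error 0.111, 95% interval 1.57 to 2.04, adjusted p = 1.11e-08 from edgeR). CEACAM5 and CEACAM6 lie 21179 bases apart on the same strand, and both share exons with AC243967.1, an annotated gene that spans them and received 0 counts in every sample.

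CEACAM19 (ENSG00000186567, chromosome 19, 44662278 to 44684359, plus strand), a less studied transmembrane member that lies outside the main cluster, rose least. Its counts were 272 and 204 in shCON and 391 and 408 in shZDHHC15. Here the spread lay in the controls, while the depleted samples were nearly alike. The level went from 13.5 ± 2.00 to 20.9 ± 0.151 CPM (SD, n = 2). In log2 terms the difference was 0.63 (standard error 0.146, 95% interval 0.32 to 0.94, adjusted p = 0.00309 from edgeR). Without shCON replicate 1 the log2 fold change was 0.77 and without shCON replicate 2 it was 0.48, both in the same direction. Its exons overlap PVR on the same strand, an adhesion molecule gene with between 3710 and 5353 counts per sample that fell by 0.48 on the log2 scale (adjusted p = 0.00109 from edgeR), the opposite direction.

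CEACAM7 (ENSG00000007306, chromosome 19, 41673307 to 41706976, minus strand), known mainly from the colonic epithelium, had 0 counts in both controls, while the depleted samples had 6 and 2. It did not pass the filter on low counts and was not tested. A count of 0 allows up to 3 counts, between 0.165 and 0.178 CPM in the shCON libraries. Against that floor per library the mean of the shZDHHC15 samples was at least 1.24-fold higher, but the second shZDHHC15 sample lies under the floor itself, and without the first the ratio falls below 1 (log2 -0.75). A change of CEACAM7 was therefore not detectable at this depth.

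**Figure D1:**
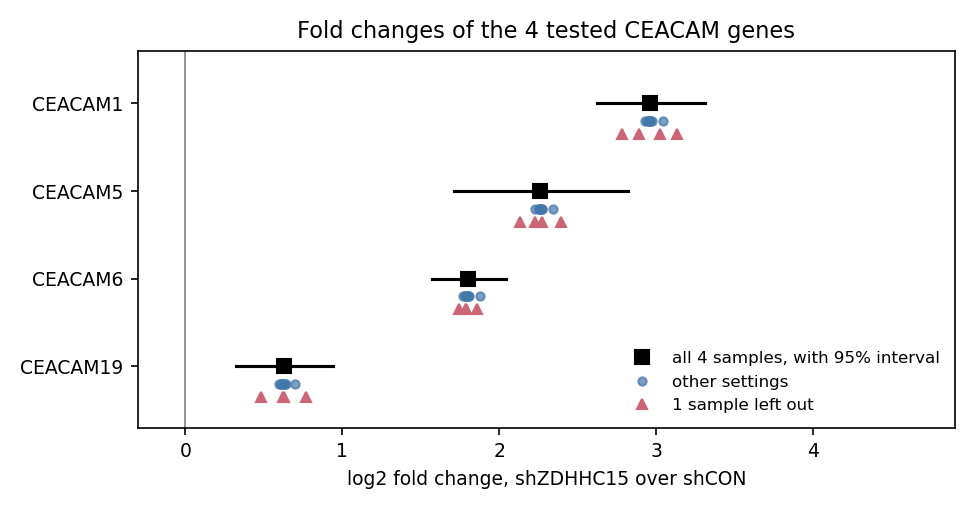
Log2 fold change of the 4 tested CEACAM genes in shZDHHC15 over shCON (x axis), with squares and lines for the estimate and 95% interval from all 4 samples. Circles give the other processing settings and triangles the fits without 1 sample; all lie to the right of 0, and the interval of CEACAM19 (0.32 to 0.94) lies to the left of that of CEACAM6 (1.57 to 2.04).

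On the scale per gene length (RPKM), which allows levels of different genes to be set side by side, the order in shCON was CEACAM6, CEACAM19, CEACAM1, CEACAM5 and CEACAM7. CEACAM6 lay between 7.69 and 7.82 RPKM, CEACAM19 between 2.32 and 2.87, CEACAM1 between 1.08 and 1.20 and CEACAM5 between 0.442 and 0.458. In shZDHHC15 CEACAM1 (7.84 to 10.0 RPKM) stood above CEACAM19 (3.99 to 4.04 RPKM), while CEACAM6 stayed highest (25.9 to 28.2 RPKM) and CEACAM5 stayed under CEACAM19 (1.98 to 2.37 RPKM). Neighbours in either order did not overlap over the 2 samples of a group. Among tested protein-coding genes, CEACAM6 exceeded 61.4% in shCON and 86.6% in shZDHHC15, CEACAM1 23.4% and 64.0%, CEACAM5 12.9% and 31.5%, and CEACAM19 36.9% and 43.5%.

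The summed level of the 5 genes was 12.3 and 11.5 RPKM in shCON and 44.8 and 39.8 RPKM in shZDHHC15. CEACAM6 made up 63.3% and 66.6% of it in shCON and 63.0% and 65.2% in shZDHHC15, ranges that overlap. The share of CEACAM1 was 9.73% and 9.39% in shCON and 22.4% and 19.7% in shZDHHC15, and that of CEACAM19 was 23.2% and 20.1% against 9.02% and 10.0%. The RPKM ratio of CEACAM6 to CEACAM1 was 6.51 and 7.10 in shCON and 2.82 and 3.31 in shZDHHC15 (two-sided exact permutation p = 0.333). The ratio of CEACAM6 to its neighbour CEACAM5 was 17.1 and 17.4 against 11.9 and 13.1 (two-sided exact permutation p = 0.333). With 2 samples against 2 this is the smallest p that the permutation test allows, so the differences between members in their response remain descriptions.

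Members of the family resemble each other in sequence. In the GENCODE transcripts, 6.99% of the windows of 50 bases in CEACAM6 also occur in another gene, against 4.28% for CEACAM1, 16.3% for CEACAM5, 1.86% for CEACAM19 and 0 for CEACAM7. For CEACAM5 these were mostly shared with AC243967.1 (529 windows), and CEACAM5 and CEACAM6 shared 40 windows with each other. CEACAM1 shared 90 windows with LIPE-AS1, 86 with CEACAM3, 35 with CEACAM6 and 21 with CEACAM5. CEACAM6 shared 112 with AC243967.1, and CEACAM19 shared 73 with PVR, genes whose exons overlap theirs. At 100 bases none of the members shared a window with each other. Windows of that length were still shared with AC243967.1 (479 of CEACAM5, 51 of CEACAM6) and PVR (23 of CEACAM19). CEACAM1 shared 18 with CEACAM3 and 10 with LIPE-AS1. Read length and the handling of reads with several matches are not given in the sources used here.

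CEACAM1, CEACAM5 and CEACAM6 all rose, so the 250 bases before their annotated starts are printed, with CEACAM7 for comparison. They come from RefSeq on GRCh38.p14, which held 4 of the 5 members, and all 4 RefSeq starts lie inside the gene bounds given above. They run 5′ to 3′ on the strand of the gene. Capitals mark matches to any of 7 short motifs searched on both strands, and no matches overlap each other.
CEACAM1 (chr19:42528482-42528731, minus strand): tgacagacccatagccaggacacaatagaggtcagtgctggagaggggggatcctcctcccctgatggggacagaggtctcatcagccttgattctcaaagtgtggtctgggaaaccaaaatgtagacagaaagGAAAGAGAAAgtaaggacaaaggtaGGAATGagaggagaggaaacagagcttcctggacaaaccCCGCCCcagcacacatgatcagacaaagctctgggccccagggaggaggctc
CEACAM5 (chr19:41708376-41708625, plus strand): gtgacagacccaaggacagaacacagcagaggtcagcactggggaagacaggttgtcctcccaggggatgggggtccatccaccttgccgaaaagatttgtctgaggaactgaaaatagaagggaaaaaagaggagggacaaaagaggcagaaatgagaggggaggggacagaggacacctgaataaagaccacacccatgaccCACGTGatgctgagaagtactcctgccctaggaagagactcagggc
CEACAM6 (chr19:41755280-41755529, plus strand): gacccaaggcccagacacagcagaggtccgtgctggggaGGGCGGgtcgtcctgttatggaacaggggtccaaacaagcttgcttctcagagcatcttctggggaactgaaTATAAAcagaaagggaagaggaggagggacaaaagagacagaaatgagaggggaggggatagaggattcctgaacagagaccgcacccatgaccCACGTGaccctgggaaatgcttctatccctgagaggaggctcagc
CEACAM7 (chr19:41688271-41688520, minus strand): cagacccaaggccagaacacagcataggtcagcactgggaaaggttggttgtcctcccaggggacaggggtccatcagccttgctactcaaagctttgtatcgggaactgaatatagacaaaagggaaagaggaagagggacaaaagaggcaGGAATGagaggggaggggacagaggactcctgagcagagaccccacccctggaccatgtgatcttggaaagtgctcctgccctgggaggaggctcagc

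The 4 stretches resemble each other, with identities in a global alignment between 66.2% (CEACAM1 and CEACAM5) and 80.5% (CEACAM5 and CEACAM7). The motifs were an IRF element (2 copies of GAAA with 2 bases between them), a GAS element (TTCNNNGAA), a GC box (GGGCGG), an E-box (CACGTG), a TEAD element (GGAATG), an AP-1 element (TGANTCA) and a TATA box (TATAAA). The IRF element, letters to which interferon regulatory factors are known to bind, occurred in CEACAM1 from -116 to -107 relative to the start, and it is held by 3.02% of 35116 promoters of this length. CEACAM5 and CEACAM6 both held the E-box, at -46 to -41 and -45 to -40, which 6.34% of promoters hold. The TEAD element occurred in CEACAM1 (-91 to -86) and CEACAM7 (-98 to -93) and in 11.9% of all promoters. A GC box was found in CEACAM1 and CEACAM6 (42.6% of promoters) and TATAAA in CEACAM6 at -139 to -134 (10.7%). The GAS and AP-1 letters, each held by 6.57% of promoters, were not in these windows. A match describes letters and not a bound site.

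Genes whose profile over the 4 samples was most like that of each member were ranked by the distance between mean-centred log2 CPM values. This is a likeness over 4 samples in which most of the distance lies between the groups. For CEACAM1 they were DDX58, which encodes the RNA sensor RIG-I (log2 fold change 2.94, distance 0.0769), the antiviral membrane protein gene IFITM1 (3.04, distance 0.105) and HERC5, the ligase that attaches ISG15 (3.08, distance 0.148). IFITM1 overlaps IFITM2 on the same strand. For CEACAM5 they included the mannosidase gene MAN1A1 (2.15, distance 0.0650) and TRIM38 (2.21, distance 0.0964). For CEACAM6 they were the guanylate-binding protein gene GBP1 (1.80, distance 0.0161), NLRC5, a regulator of MHC class I genes (1.82, distance 0.0954), and TCN1, a vitamin B12-binding protein gene (1.71, distance 0.0999). CEACAM19 was closest to CHAMP1 (0.60, distance 0.0321), TRIM37 (0.65, distance 0.0394) and the centrosomal gene CEP250 (0.66, distance 0.0439).

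Interferon-stimulated genes were higher as well, with 34 of 35 listed genes higher, 0 lower and a median log2 fold change of 3.02. For this and all later lists, the shares over all tested genes were 21.7% higher and 20.3% lower. CXCL10, a chemokine gene, rose by 6.65 on the log2 scale and XAF1 by 5.74, while MX1 did not pass the test (log2 fold change 0.77, adjusted p = 0.0564 from edgeR). The list was written with results of these samples known and is no independent evidence of its direction. Their summed level was 3700 and 4080 CPM in shCON and 16100 and 13600 CPM in shZDHHC15, and their part in the rise of the CEACAM genes was not tested.

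Of 13 genes listed as regulators of CEACAM1 transcription or splicing, 2 were higher and 5 lower, with a median log2 fold change of -0.0462. IRF1, an interferon-induced factor known to activate CEACAM1, was higher by 0.49 (1694 and 1642 counts in shCON, 2626 and 2493 in shZDHHC15, adjusted p = 9.69e-04 from edgeR). SP1, which binds GC boxes, was higher by 0.50 (adjusted p = 0.00184), a call lost without shZDHHC15 replicate 1 (log2 fold change 0.37, adjusted p = 0.0507). TFAP2A fell by 0.74 (adjusted p = 1.58e-04) and SOX9 fell by 0.37 (adjusted p = 0.00368). ESRP2 (-0.37), HNRNPL (-0.30) and USF2 (-0.25) were also lower, but each lost its call without shZDHHC15 replicate 1, leaving 2 lower genes. HNRNPL and USF2 lost it without shZDHHC15 replicate 2 too. USF2 also lost it without shCON replicate 2 (-0.19), with library size as the only scaling (-0.18) and with no filter (-0.27). The splicing factor genes HNRNPA1 (log2 fold change -0.16, adjusted p = 0.135), HNRNPM (0.06, adjusted p = 0.601) and ESRP1 (0.18, adjusted p = 0.158) and the E-box factor gene USF1 (0.17, adjusted p = 0.182) did not pass the test.

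Among 20 partners of CEACAM1 signalling, 18 were tested, with 2 higher, 5 lower and a median log2 fold change of -0.0997. The genes of the phosphatases SHP-1 (PTPN6, log2 fold change 0.16, adjusted p = 0.358) and SHP-2 (PTPN11, 0.13, adjusted p = 0.301) did not pass the test, and their counts of 437 to 582 and 2880 to 3813 show that both were expressed. The insulin receptor gene INSR rose by 1.07 (adjusted p = 1.81e-05) and the growth factor receptor gene EGFR by 0.74 (adjusted p = 4.00e-05). FYN, a kinase of the SRC family, fell by 1.42 (adjusted p = 7.39e-05), the calmodulin gene CALM2 by 0.66 and the paxillin gene PXN by 0.53. ANXA2 and S100A10, which encode a complex at the membrane, fell by 0.73 and 0.60. SRC was at 0.26 (adjusted p = 0.0509), and it passed the test without shCON replicate 2 (0.35, adjusted p = 0.00555), with a minimum of 10 counts per sample (0.27, adjusted p = 0.0374) and with the legacy dispersion (0.26, adjusted p = 0.0489). With library size as the only scaling 4 genes of the list were higher, SRC and CTNNB1 included. HAVCR2, the TIM-3 gene, had at most 2 counts. Exons of IRF1, TFAP2A, ESRP2, EGFR, PXN and PTPN11 overlap genes on the opposite strand, and reads of such pairs cannot be told apart without strand.

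CEACAM5 and CEACAM6 depend on the GPI anchor pathway, of which 32 of 33 listed genes were tested. Of these 5 were higher and 4 lower, and their median log2 fold change was -0.0214. PIGZ and PGAP1 rose most by fold from low levels (1.10 to 3.26 CPM and 2.56 to 5.23 CPM), and PIGN was higher by 0.96 and MPPE1 by 0.73. PIGL fell by 0.78 and DPM2, a subunit of the synthase that supplies mannose, fell by 0.63. Exons of PIGL, DPM2 and MPPE1 overlap genes on the opposite strand. Without shZDHHC15 replicate 1 the count of higher genes was 3.

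Other GPI-anchored surface proteins had 7 higher and 8 lower of 32 tested and a median of -0.18. These counts are near the shares over all tested genes, 21.7% higher and 20.3% lower. BST2, the interferon-induced tetherin, rose by 1.41 and the glypican gene GPC4 by 1.06, while the contactin gene CNTN1 fell by 2.01 and the placental alkaline phosphatase gene ALPP fell by 1.40. Other adhesion molecules had 6 higher and 8 lower of 26 tested and a median of -0.087, to be read beside the same shares. PECAM1 rose from 75 and 56 to 666 and 405 counts (log2 fold change 2.91, adjusted p = 5.43e-07 from edgeR) and CD47 rose by 0.61, while MCAM fell by 0.81 and BCAM by 0.72. The cadherin gene CDH1, the main adhesion receptor of epithelial cells, had a log2 fold change of -0.05 (adjusted p = 0.706).

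The remaining members of the family were nearly silent. Of 17 other CEACAM and PSG (pregnancy-specific glycoprotein) genes, only PSG5 was tested. It received 31 and 24 counts in shCON and 7 and 8 in shZDHHC15, so it entered the test through its shCON samples alone. The log2 fold change of PSG5 was -1.98 (adjusted p = 0.00282 from edgeR), opposite to the CEACAM genes. PSG9 had 8 and 4 counts in shCON and 0 in both shZDHHC15 samples. CEACAM3, CEACAM4, CEACAM8 and CEACAM16 were among the 6 genes at 0 counts in every sample. CEACAM3 and CEACAM8 are granulocyte genes, and other leukocyte markers were low too. Of 18 such markers 7 were at 0 in every sample, the T cell genes CD3E and CD3D and the granulocyte genes MPO and ELANE among them, and PTPRC, which encodes CD45, had between 1 and 4 counts. Their summed level was at most 9.54 CPM in shCON and at most 13.2 CPM in shZDHHC15. NCAM1 had the most counts of the list, 119 and 90 in shCON and 114 and 108 in shZDHHC15. Its level was between 5.34 and 6.53 CPM, and it did not pass the test (log2 fold change -0.03, adjusted p = 0.912 from edgeR). CD14, with 9 and 5 counts in shCON, entered the test through its shZDHHC15 samples (25 and 22 counts) alone. Of 4 tested genes 2 were higher, CD14 and S100A12, and 1 lower, CD8A. With DESeq2 or a minimum of 10 counts per sample, 1 of them was higher and 0 lower. Leaving out shCON replicate 2 or shZDHHC15 replicate 1 left 1 of them higher, and without shCON replicate 2 or shZDHHC15 replicate 2 none was lower. Endothelial and fibroblast markers summed to 63.3 and 64.7 CPM in shCON and 119 and 110 CPM in shZDHHC15. Of their 4 tested genes 3 were higher, PECAM1, CDH5 and COL1A1, and KDR was lower. KDR lost its call with DESeq2, with no filter, without shCON replicate 1 or without shZDHHC15 replicate 2. COL1A1 lost its call with DESeq2, with no filter, without shCON replicate 1 or without shZDHHC15 replicate 1. The fibroblast genes LUM and DCN had at most 1 count. COL1A1, also a fibroblast gene, had 100 and 120 counts in shCON and 214 and 161 in shZDHHC15. The endothelial gene CDH5 had 807 and 780 counts in shCON and 1224 and 1487 in shZDHHC15. The part of such markers in the CEACAM values was not tested.

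Genes beside the CEACAM genes did not share one direction. Within 150 kb of a member, 16 other genes were tested, with 4 higher, 7 lower and a median log2 fold change of -0.315. The shares over all tested genes were 21.7% higher and 20.3% lower. Beside CEACAM1, CXCL17 and LIPE were higher. CXCL17, a mucosal chemokine gene 64256 bases away, rose from 118 and 115 to 1216 and 998 counts, a log2 fold change of 3.13 (adjusted p = 1.16e-09 from edgeR). LIPE, the hormone-sensitive lipase gene, went from 6 and 4 to 28 and 25 counts (2.26, adjusted p = 0.00248 from edgeR). With under 10 counts in both controls, LIPE entered the test through its shZDHHC15 samples alone. LIPE-AS1 had a log2 fold change of -0.24 (adjusted p = 0.745 from edgeR). CNFN had a log2 fold change of 0.12 (adjusted p = 0.652).

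Around CEACAM19, BCL3, a gene of the NF-kappaB inhibitor family, rose by 1.05 (adjusted p = 1.09e-06), while PVR and BCAM fell by 0.48 and 0.72. The transcript AC243964.3 lies within the bounds of CEACAM19 without sharing its exons. It received 403 and 320 counts in shCON and 252 and 310 in shZDHHC15 (log2 fold change -0.49, adjusted p = 0.0148 from edgeR). The call was lost with no filter, without shCON replicate 1 (-0.39) or without shZDHHC15 replicate 1 (-0.38). IGSF23 (18 and 23 counts in shCON, 1 and 10 in shZDHHC15) was lower, a call lost with DESeq2, with no filter or without shZDHHC15 replicate 1. Its log2 fold change was -1.19 without shZDHHC15 replicate 1 and -4.28 without shZDHHC15 replicate 2. CBLC was also lower (log2 fold change -0.39), a call lost without shCON replicate 2 (-0.34) or without either shZDHHC15 sample (-0.43 and -0.35). The call was lost too with no filter or with library size as the only scaling. Near CEACAM6, AC010616.1 (-1.45) was lower, a call lost with DESeq2, with no filter, without shCON replicate 1 (-1.12) or without shZDHHC15 replicate 2 (-1.10). There the ribosomal protein gene RPS19 fell by 0.42 (adjusted p = 0.00221) and ARHGEF1 was at 0.07 (adjusted p = 0.577). Near CEACAM7, LINC01480 was at 1.13 (adjusted p = 0.12). The counts of higher and lower neighbours were 3 and 5 without shCON replicate 1, 4 and 6 without shCON replicate 2, 3 and 4 without shZDHHC15 replicate 1 and 3 and 6 without shZDHHC15 replicate 2.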

How the data were processed

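Libraries for RNA-seq were made with the NEBNext Ultra kit from total RNA. The authors deposited raw counts of reads per gene for 58735 genes in 4 samples, and every column of counts was used. The submitters' processing notes name HISAT2, StringTie, SAMtools and build hg38, while versions and strand use are not given in the sources used here. All 58735 genes matched GENCODE release 29 in start and end.

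Genes passing filterByExpr (15817) were tested with edgeR 4.0.16 (R 4.3.3) by TMM scaling, glmQLFit, glmQLFTest and Benjamini-Hochberg adjustment over all of them, with group as the only term. CPM were TMM-scaled and RPKM used the gene length of the table. A prior count of 2 was used for log2 CPM. Standard errors were taken from the fold change and F statistic. The fits were run on counts simulated with dispersions from these samples and with far fewer changed genes than were called here. That run cannot show how the fits behave on data like these. Alternatives changed the scaling (DESeq2 size factors, upper-quartile factors or library size alone), the filter (none, or a minimum of 10 counts per sample) or the test (DESeq2 1.42.0, or edgeR's legacy dispersion), added a replicate block, or left out 1 sample.

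Named genes were the members, ZDHHC15, the 3 tested protein-coding genes nearest to each member in profile, genes within 150 kb with at least 10 counts in a sample, and from each list up to 2 rises and 2 falls with a mean of at least 100 counts, with any gene of the regulator and partner lists. Genes below that mean or outside it (CEACAM3, CEACAM4, CEACAM8, CEACAM16, PSG5, PSG9, PIGZ, PGAP1, ERBB2, CDH1, CDH5, CDH13, MX1 and leukocyte and fibroblast markers) were chosen after their values were seen. Some genes that this rule names are not reported here. The members and lists were chosen with earlier results of these data known. Floors for counts of 0 cover counting error only.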

Additional observations from a re-analysis of the deposited data

How the results depend on the processing

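The 48 alternative fits of CEACAM1, CEACAM5, CEACAM6 and CEACAM19 kept the direction. Those that keep all samples also had an adjusted p under 0.05. With each sample left out, the log2 fold changes lay between 2.78 and 3.13 for CEACAM1, 2.13 and 2.39 for CEACAM5, 1.74 and 1.86 for CEACAM6 and 0.48 and 0.77 for CEACAM19. These fits leave 1 sample in a group, which is assumed to vary like the other group. CEACAM7 depended on the setting. With no filter its fitted log2 fold change was 4.98 (adjusted p = 0.162), a value set by the prior count, and its bound against the floor was between -0.75 (without shZDHHC15 replicate 1) and 0.91. With library size only the bound was 0.38, and no value was computed for CEACAM7 under the other 6 settings that keep all samples. The number of genes higher in shZDHHC15 was 3427, and 2282 with no filter. That setting tests more genes and also estimates the dispersions with them, and the reason for the lower number was not tested.

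The replicate numbers alone do not show whether samples were paired. The differences between replicates 1 and 2 of the groups had a correlation of 0.03 across genes. This value cannot tell whether samples of the same number were prepared together. The replicate block gave 3723 higher and 3502 lower genes and 4 higher CEACAM genes, and with 2 samples per group no call of a CEACAM gene changed. Among the other named genes it changed the call of SRC (0.26, adjusted p = 0.0203). For 78 other named genes, 871 of 929 values kept their direction and side of the threshold. The values that changed sign belonged to genes that were not called. With library size only SRSF1 and SP3 were at 0.03, and with upper-quartile factors LYN was at -0.01. With 1 sample left out, the values lay between -0.18 and 0.09 for SRSF1 (above 0 without shCON replicate 1), -0.14 and 0.03 for SP3 (without shCON replicate 1), -0.18 and 0.00 for SHC1 (without shCON replicate 2), -0.67 and 0.28 for LIPE-AS1 (0.28 without shCON replicate 2, 0.08 without shZDHHC15 replicate 2), and -2.53 and 0.40 for AC092306.1, a non-coding gene near CEACAM19 (0.17 without shCON replicate 2, 0.40 without shZDHHC15 replicate 1). The cause was not tested. Depth limits CEACAM7, and the 25 to 28 control counts of CEACAM5 set the width of its interval.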
